A study of Homo sapiens with 4 samples.

Results

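The MAGE-A, MAGE-B and MAGE-C genes, a family of X-linked cancer-testis antigens, were followed in 2 colorectal cancer cell lines exposed to 5-aza-2'-deoxycytidine, a cytidine analogue that depletes DNA methyltransferases in dividing cells. Members were the spots whose platform gene symbol was MAGEA1, MAGEA2, MAGEA3, MAGEA8, MAGEA12, MAGEB2, MAGEB3, MAGEB4, MAGEC2 or MAGEC3. They numbered 11 probes for 10 genes, of 29640 probes that were not controls and 13015 named genes. All 10 genes passed the filter on dim spots on all arrays, as did 9102 genes in all, although 1 of the 2 MAGEC2 probes did not.

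DLD-1 and HT-29 are established epithelial lines from human colorectal carcinomas. Cells of each line were plated for 24 h and then either kept untreated or incubated for 96 h with 1 µM of the drug. No genotype difference or vehicle is named for the untreated cells, and each line stands for 1 tumour. Treated and untreated RNA of a line were hybridised together to 2 two-colour oligonucleotide arrays, array 1 with treated RNA in Cy5 and array 2 with the dyes exchanged, which gave 4 arrays. Nothing in the labels says that arrays or lines stem from separate cultures. Both arrays of a line entered as 1 replicate, and p-values concern only these samples. In the 2 main fits they rest on a spread between the line means that was shared across all genes. The series text gives the aim as a search for genes silenced by methylation that rise after the treatment.

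Proteins of this family share a MAGE homology domain through which many of them bind RING-type ubiquitin ligases and change what those ligases act on. The MAGE-A, -B and -C genes (type I) are normally transcribed mainly in germ cells of the testis and in placenta and are silent in most adult tissues, including normal colon, where DNA methylation at their promoters is a known part of the silencing. Many tumours transcribe them again, and peptides of several members are presented to T cells, which gave the family its place among tumour antigens.

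Promoter sequence is shown because methylation acts on CpG dinucleotides, which the drug leaves unmethylated as DNA is copied. The 250 bases before the annotated start were taken from RefSeq (GRCh38.p14), which held 9 of the 10 members, all but MAGEA1. MAGEB2 (chrX:30215313-30215562, plus strand) and MAGEA3 (chrX:152698544-152698793, plus strand) held 15 CpG each. MAGEB4 (chrX:30241750-30241999, plus strand) and its neighbour MAGEB3 held 1 each. These 3 stretches are printed because they span that range and belong to the members described most closely below, with every CpG in capitals.
MAGEB2: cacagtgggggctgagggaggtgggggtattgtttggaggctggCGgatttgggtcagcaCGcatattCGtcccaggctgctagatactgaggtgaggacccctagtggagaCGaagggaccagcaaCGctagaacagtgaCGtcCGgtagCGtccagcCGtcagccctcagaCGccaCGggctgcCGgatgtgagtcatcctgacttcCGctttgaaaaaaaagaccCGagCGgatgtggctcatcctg
MAGEA3: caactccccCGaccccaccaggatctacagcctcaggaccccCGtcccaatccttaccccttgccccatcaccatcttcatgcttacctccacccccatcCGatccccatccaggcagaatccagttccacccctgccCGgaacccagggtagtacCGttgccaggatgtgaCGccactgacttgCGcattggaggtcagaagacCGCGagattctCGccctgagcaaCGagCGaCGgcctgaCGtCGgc
MAGEB4: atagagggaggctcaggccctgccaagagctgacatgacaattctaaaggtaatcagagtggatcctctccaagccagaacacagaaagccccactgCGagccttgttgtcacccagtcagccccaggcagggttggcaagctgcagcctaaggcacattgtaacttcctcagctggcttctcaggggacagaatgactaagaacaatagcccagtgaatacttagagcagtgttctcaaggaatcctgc
The other members lay between these extremes, with 9 CpG before MAGEA2, 8 before MAGEA8, 6 before MAGEC2, 5 before MAGEA12 and 4 before MAGEC3. Over all 27305 promoters of the same length the median was 10, with quartiles of 3 and 23, so only MAGEA3 and MAGEB2 of the 9 lay above the median. Each count depends on where the annotated start lies.

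A 7-base word, GGATGTG, lay whole within the 250 bases before the start of 5 of the 9 members, the 4 MAGE-A genes and MAGEB2. The MAGEC2 stretch ended in GGATGT, so whether it holds the word depends on the next base, which was not searched. The search covered both strands (CACATCC on the other), and the word was chosen after the ratios were known. It occurred in 971 of the 27305 promoters, or 3.56%. MAGEB2 held 2 copies. The word is shown in capitals within its surroundings for the copy nearest the start, which began 18, 86, 12, 12 and 17 bases before the start in the order given.
MAGEA2: acgggcccGGATGTGacgccact
MAGEA3: cgttgccaGGATGTGacgccact
MAGEA8: gggtggacGGATGTGacgcc
MAGEA12: acggggccGGATGTGacgcc
MAGEB2: acccgagcGGATGTGgctcatcc
The 4 MAGE-A windows shared the bases after the word as well, and MAGEB2 differed there. Upstream sequences of MAGEA2 and MAGEA12 were identical at 228 of 258 aligned columns (88.4%), while MAGEA2 and MAGEA3 were identical at 164 of 320 (51.2%) over windows set by annotated starts that lie at different distances from the shared word. No peak, methylation or binding value was analysed here, so the letters describe the loci only.

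Each ratio is given per array as log2 of channel 2 over channel 1, after background correction and within-array normalisation. Scanner columns are numbered by channel without a dye, and which of the 2 carries treated RNA on the dye-exchanged arrays could not be settled. Line means are therefore given under both readings. The file channel order treats channel 2 as the treated one throughout. The label channel order turns the sign of both dye-exchanged arrays, because the labels list treated RNA there as the first channel. On array 1 of each line the labels put treated RNA in channel 2, so those signs do not depend on the reading, but dye and treatment cannot be told apart on them.

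Quality varied between arrays. Median local background ran from 64.0 to 567 intensity units across the 8 channels, and the position of the printed block accounted for 21.6% to 50.8% of the variance of the log2 ratios. In the file channel order the 2 DLD-1 arrays had a correlation of -0.45 over 18868 probes above background on all arrays, the 2 HT-29 arrays one of 0.00, the first arrays of both lines 0.51, and DLD-1 array 2 with HT-29 array 1 -0.36. Probes are not independent replicates, and turning the dye-exchanged arrays turns the first of these to a positive sign. Of the 14 probes for intestinal epithelial markers 10 were above background in all 8 channels, and so were 3 of 7 germ cell, 2 of 4 leukocyte, 5 of 7 fibroblast or endothelial and 4 of 9 hepatocyte probes. Signal above background on these arrays was therefore not restricted to genes of the labelled tissue. Precision is limited by there being 4 arrays.

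The 11 probes of the 10 genes gave signal in most channels, untreated RNA included. Above background means here an intensity more than 2 background SD over the local background. Of the 88 pairs of probe and channel, 84 met this. Of the 11 member probes 8 were above background in all 8 channels (72.7%), where 14197 of 29640 probes in all were (47.9%). Nothing is read from that gap, because every one of these 10 genes had passed the filter on dim spots, and of the 5 probes for other type I MAGE genes 0 were above background in all 8 channels and 2 were in none. On the dye-exchanged array of either line all 11 probes were above background in both channels, so this holds for untreated RNA whichever channel carried it. In channel 1 of array 1, untreated by the labels, 10 of 11 were above background in each line. The 4 exceptions were MAGEA8 in channel 2 of DLD-1 array 1, MAGEB2 in channel 1 of HT-29 array 1, and the second MAGEC2 probe in both channels of DLD-1 array 1. Because all 11 probes were above background on the dye-exchanged arrays, none could be below it on both arrays of a line. Whether a member went from undetected to detected with the drug is therefore not read from these counts. On HT-29 array 1 MAGEB2 was above background in channel 2, treated by the labels, and not in channel 1.

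**Figure D1:**
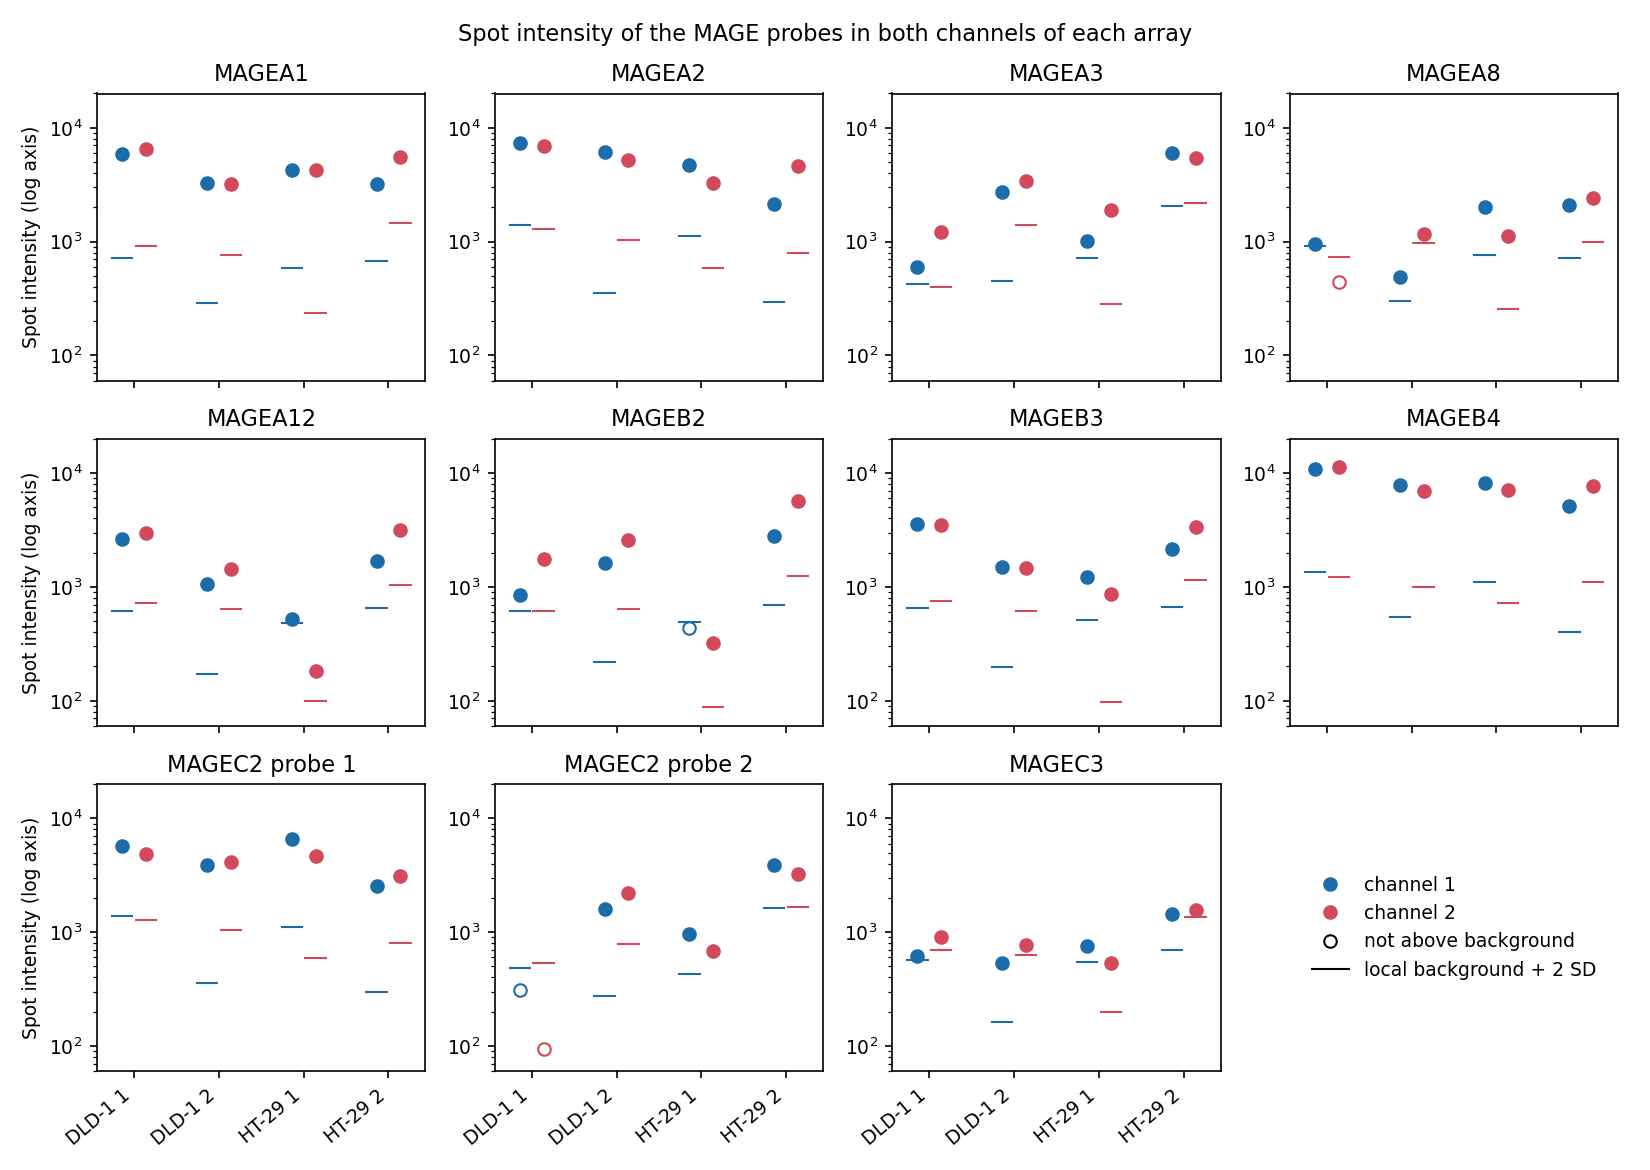
Spot intensity (log axis) of the 11 MAGE probes in channel 1 (blue) and channel 2 (red) of arrays 1 and 2 of each line; 1 point is 1 spot, a short line is the local background plus 2 SD, and an open point is not above it. In 84 of 88 pairs of probe and channel the point lies above its line, and the points of the same array mostly lie close together.

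These intensities are summed over all cells of a culture, so fewer transcribing cells and less RNA per cell cannot be told apart. They also cannot be tied to 1 paralog: MAGEA2, MAGEA3 and MAGEA12 are close copies of each other and of MAGEA6, the probe sequences were not used here, and hybridisation between copies was not tested.

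In the file channel order MAGEB2, a germ-line protein known to restrain translation of the stress granule factor G3BP1, was the one member with the same sign on all 4 arrays. After subtraction of local background, its probe (AGhsA120503) read 445 in channel 1 and 1483 in channel 2 on DLD-1 array 1, and 1543 and 2093 on DLD-1 array 2. On the HT-29 arrays it read 94.3 and 269, then 2485 and 5147. Channel 2 was the brighter channel each time, with normalised log2 ratios of 0.88 and 0.53 in DLD-1 and 0.39 and 0.72 in HT-29. The lowest of these came from the array on which channel 1 was not above background. In the file channel order the line means were 0.70 ± 0.25 in DLD-1 (1.63-fold) and 0.55 ± 0.23 in HT-29 (1.47-fold; mean ± SD of 2 arrays here and for every line mean). Under the label channel order the same 4 values gave 0.18 ± 1.00 and -0.16 ± 0.78, with each SD far larger than its mean. The reading alone decides which of these means applies.

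One sign on all 4 arrays was itself uncommon. In the file channel order 392 of 9102 genes were positive on all 4 (4.31%) and 326 were negative on all 4 (3.58%), and of the 10 members MAGEB2 was positive and none was negative. Turning the dye-exchanged arrays gave 934 genes (10.3%) positive and 512 genes (5.63%) negative, and of the members none was positive and MAGEA12 and MAGEB4 were negative. The named genes whose 4 ratios lay nearest to those of MAGEB2 by Euclidean distance were MBD4 (0.407), PNPLA8 (0.417) and BTN3A2 (0.435).

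MAGEA3, which binds the ubiquitin ligase TRIM28 and is a T-cell target in several tumours, had its largest ratios on the first array of each line. Its probe (AGhsB240420) read 337 in channel 1 and 1077 in channel 2 on DLD-1 array 1, and 642 and 1825 on HT-29 array 1. On the dye-exchanged arrays the channels were close, 2544 and 2715 in DLD-1 and 5407 and 4569 in HT-29. The log2 ratios were 0.72 and 1.19 on the first arrays and 0.19 and -0.41 on the dye-exchanged ones. HT-29 array 1 was thus past 2-fold, as were 4.39% of all probes on that array in that direction, and DLD-1 array 1 was not. Line means were 0.45 ± 0.38 in DLD-1 and 0.39 ± 1.13 in HT-29 in the file channel order, and 0.27 ± 0.64 and 0.80 ± 0.55 in the label channel order. The mean was positive in both lines under both readings, and only in HT-29 in the label order and in DLD-1 in the file order did it exceed its SD.

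Once printed blocks were each centred on their median, MAGEA3 had ratios of 1.33 (DLD-1) and 1.30 (HT-29) on the first arrays and -0.15 and -0.05 on the dye-exchanged ones. The file-order line means became 0.59 and 0.62, and DLD-1 array 1 was the array that moved most. The block-centred MAGEB2 ratios were 0.63 and 0.78 in DLD-1 and 0.08 and 0.46 in HT-29, still of 1 sign.

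MAGEA8, a member of the MAGE-A cluster, went the other way on the first arrays. Its probe (AGhsB130824) read 558 and 256 in channels 1 and 2 of DLD-1 array 1, where channel 2 was not above background, and 423 and 547 on DLD-1 array 2. The HT-29 readings were 1580 and 1022, then 1900 and 1985. Log2 ratios were -1.17 and 0.57 in DLD-1 and -0.62 and -0.17 in HT-29. The DLD-1 array 1 value was past 2-fold, as were 1.60% of all probes on that array in that direction, and it became -0.42 once block medians were set to 0. Line means were -0.30 ± 1.24 in DLD-1 and -0.39 ± 0.32 in HT-29 in the file channel order, and -0.87 ± 0.42 and -0.22 ± 0.56 in the label channel order.

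Signal of MAGEA1, the prototype antigen of the family, was bright in both channels throughout. In DLD-1 its probe (AGhsC080118) read 5607 and 6162 in channels 1 and 2 of array 1, then 3212 and 2721 in those of array 2. The HT-29 values were 3903 and 4155, then 2886 and 4910. The ratios were -0.09 and -0.11 in DLD-1 and 0.10 and 0.46 in HT-29. Both DLD-1 values lay below 0 and both HT-29 values above it, with file-order means of -0.10 ± 0.01 and 0.28 ± 0.25. The label-order means were 0.01 ± 0.14 and -0.18 ± 0.40, within their SD.

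MAGEA2, known as a binder of p53, and MAGEA12, its close copy, both changed sign between the HT-29 arrays. The MAGEA2 probe (AGhsB100112) had ratios of -0.31 and -0.05 in DLD-1 and of -0.37 and 0.71 in HT-29, with channel signal between 1986 and 6926. The MAGEA12 probe (AGhsB110604) had ratios of -0.07 and 0.22 in DLD-1 and of -0.65 and 0.59 in HT-29, on signal that fell to 214 and 132 on HT-29 array 1. Channel 2 was thus the dimmer on HT-29 array 1 and the brighter on HT-29 array 2 for both. Turned to the label channel order, this gave HT-29 means of -0.54 ± 0.24 for MAGEA2 (1.45-fold lower) and -0.62 ± 0.04 for MAGEA12 (1.54-fold lower), and in the file channel order 0.17 ± 0.76 and -0.03 ± 0.88. The DLD-1 means of both genes lay between -0.18 and 0.07 under either reading. With block medians set to 0, MAGEA2 no longer changed sign in HT-29 (0.04 and 0.56), and its label-order HT-29 mean became -0.26. MAGEA12 still changed sign there (-0.82 and 0.27). Its block-centred label-order means were -0.50 in DLD-1 and -0.55 in HT-29.

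MAGEB4 and MAGEB3 lie next to MAGEB2 on the short arm of the X chromosome. MAGEB4 (AGhsA080922) was bright, from 4929 to 10896 in all 8 channels, with ratios of -0.26 and 0.22 in DLD-1 and -0.31 and 0.43 in HT-29. Its label-order means were -0.24 ± 0.03 and -0.37 ± 0.09, small against 2-fold yet larger than the spread between their 2 arrays. Its file-order means were -0.02 ± 0.34 and 0.06 ± 0.52. MAGEB3 (AGhsA120504) read between 819 and 3197, with ratios of -0.24 and -0.26 in DLD-1 and -0.23 and 0.32 in HT-29. The file-order means of MAGEB3 were -0.25 ± 0.01 and 0.04 ± 0.39, and its label-order means 0.01 ± 0.35 and -0.27 ± 0.06. No ratio of these 2 neighbours had the size of the largest MAGEB2 ratio, 0.88 on DLD-1 array 1. The ranges overlapped, as MAGEB4 on HT-29 array 2 (0.43) lay above MAGEB2 on HT-29 array 1 (0.39).

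MAGEC2, another partner of TRIM28, was represented by 2 probes. The first (AGhsA120124) read from 2406 to 6131, with ratios of -0.43 and 0.10 in DLD-1 and -0.48 and -0.16 in HT-29. The second (AGhsB081617), designed from a genomic clone, read 44.0 and -57.3 on DLD-1 array 1, above background in neither channel, and so did not enter the gene value. Elsewhere its ratios were 0.26 on DLD-1 array 2 and -0.26 and -0.61 on the HT-29 arrays. The 2 probes had the same sign on those 3 arrays, and the HT-29 file-order means were -0.32 ± 0.22 and -0.43 ± 0.25. Once blocks were centred they differed in sign on 2 of the 3 arrays, and these means became -0.18 and -0.12. MAGEC3 (AGhsB050517) was dim, from 302 to 1147, with ratios of 0.14 and -0.16 in DLD-1 and -0.10 and -0.34 in HT-29. Its line means lay between -0.22 and 0.15 under both readings.

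**Figure D2:**
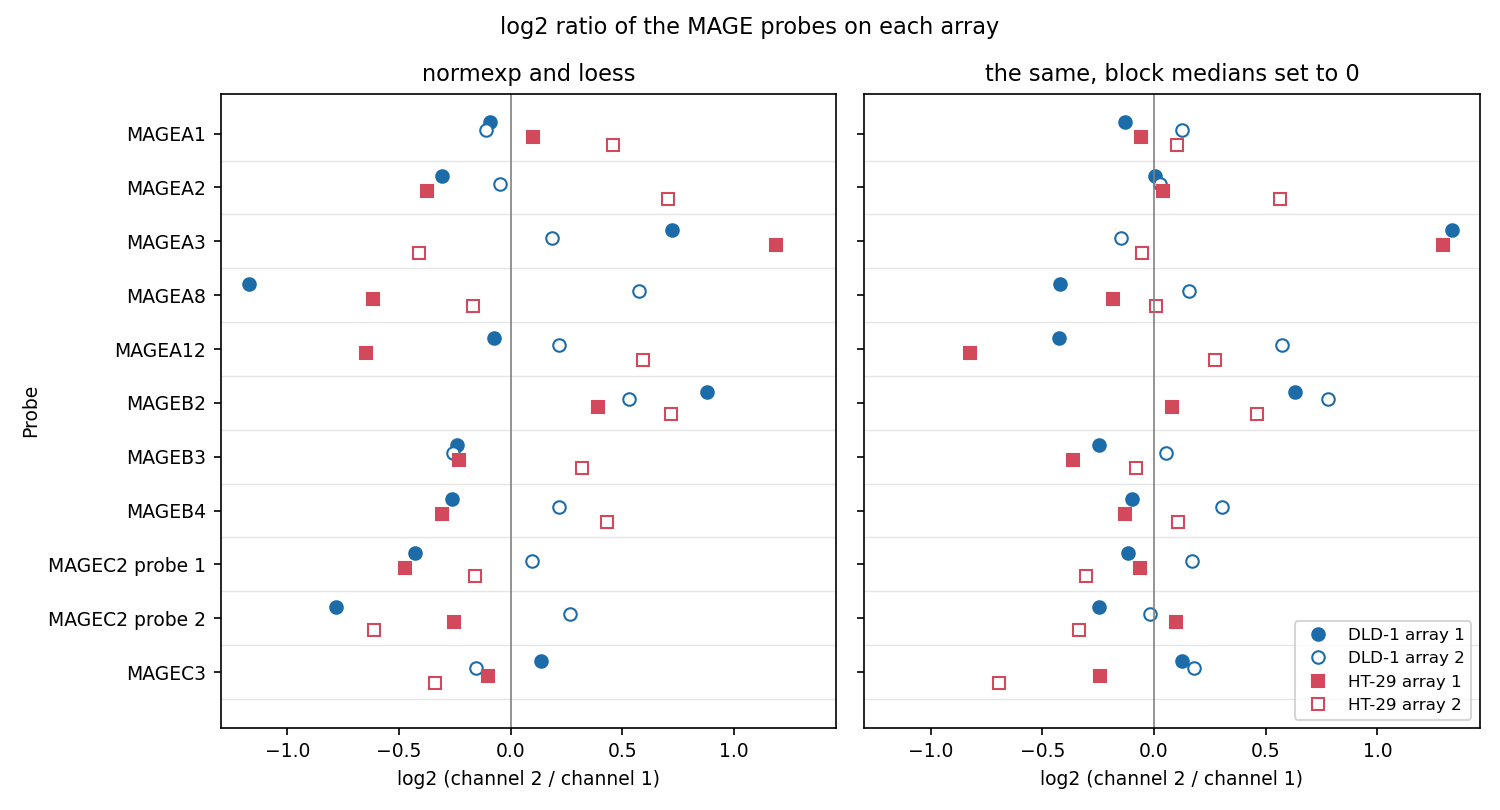
Log2 ratio of channel 2 over channel 1 for each MAGE probe on each array, after normexp and loess (left) and with block medians also set to 0 (right); 1 point is 1 array. MAGEB2 lies right of 0 on all 4 arrays in both panels, and MAGEA2 does so in the right panel only. MAGEA3 lies at 1.33 and 1.30 on the first arrays in the right panel, and most other probes straddle 0.

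Single arrays held few large member ratios. On DLD-1 array 1, 0 member probes were past 2-fold upward and 1 downward (MAGEA8), against 2.83% and 1.60% of all probes. On DLD-1 array 2 none was past 2-fold, against 2.18% upward and 4.14% downward. HT-29 array 1 held 1 upward (MAGEA3) and none downward, against 4.39% and 1.07%, and HT-29 array 2 none, against 1.96% and 2.19%. Medians of the measured member probes were -0.17 and 0.19 on the DLD-1 arrays and -0.26 and 0.32 on the HT-29 arrays, lower on each first array than on its dye exchange.

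No member reached 2-fold with 1 sign on both arrays of a line. In DLD-1, 0 of 10 measured member probes did so in either reading, where 24 of 21218 probes were higher (0.113%) and 2 lower (0.00943%) in the file channel order, and 78 (0.368%) and 3 (0.0141%) in the label channel order. In HT-29, 0 of 11 did so, where 26 of 22646 probes were higher (0.115%) and 3 lower (0.0132%) in the file channel order, and 69 (0.305%) and 1 (0.00442%) in the label channel order. Shares this small leave little room for a count above 0 among 10 or 11 probes.

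Over both lines, no member passed the test. A two-sided limma fit compared the line means with 0 and called a gene at an adjusted p under 0.05 (Benjamini-Hochberg, 9102 genes). In the file channel order 17 genes were called higher (0.187%) and 4 lower (0.0439%), with 0 of 10 members among them. In the label channel order 57 were called higher (0.626%) and 2 lower (0.0220%), again with 0 of 10 members. At an unadjusted p under 0.05, limma held 1 member (MAGEB2) of 456 genes in the file channel order and 2 members (MAGEA3 and MAGEA8) of 1004 genes in the label channel order. The smallest p that exact sign flipping of 2 line means allows is 0.5. The calls thus rest on the spread shared across genes, for which limma took 1 value, an SE of 0.216 in the file and 0.238 in the label channel order. The smallest mean called was 0.84 in size in the former and 0.86 in the latter.

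MAGEB2 came nearest in the file channel order, with a mean of 0.63 ± 0.22 (SE; 1.55-fold; 95% interval 0.21 to 1.05), and ranked 64 of 9102 genes. Its adjusted p from limma was 0.379 there and 0.996 in the label channel order, where its mean was 0.01 and its rank 5069. MAGEA3 had a mean of 0.42 in the file channel order (limma adjusted p = 0.988; interval -0.00 to 0.84) and 0.53 in the label channel order (adjusted p = 0.361; interval 0.07 to 1.00). MAGEA8 had means of -0.35 (limma adjusted p = 0.988) and -0.55 (adjusted p = 0.338; interval -1.02 to -0.08). The remaining 7 means lay between -0.24 (MAGEC2) and 0.09 (MAGEA1) in the file channel order. Label-order means lay between -0.38 (MAGEA12) and 0.13 (MAGEC3). The median over the 10 members was 0.01 in the file channel order, as over all genes, and -0.17 in the label channel order, where all genes had a median of 0.05.

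Calls of members appeared where fewer arrays were used. On the 2 first arrays alone, where treated RNA was in Cy5, limma called 283 of 9833 genes higher (2.88%) and 36 lower (0.366%). MAGEA3 rose there by 0.96 (adjusted p = 0.0381) and MAGEA8 fell by 0.90 (adjusted p = 0.0498). In this limma fit 3 of the 10 members had an unadjusted p under 0.05, and so did 2308 of all 9833 genes. Without DLD-1 array 2, in the file channel order, limma called 357 of 9261 genes in place of 21 of 9102. Among them were MAGEB2 at 0.72 (adjusted p = 0.0479) and MAGEA8 at -0.78 (adjusted p = 0.0279). With block medians set to 0 in the label channel order, 330 of 9102 genes were called in place of 59, among them MAGEA3 at 0.71 (adjusted p = 0.0240). On the first arrays alone, 0 members were called with median centring, block centring, background subtraction, the deposited ratios or no filter on dim probes. Those settings called 4, 2, 0, 0 and 4 genes in all, of 7652 to 12998 tested, which leaves little room for a member. Requiring both channels above background called 693 of 7652 genes and 1 of 8 members, MAGEA3 at 0.96 (limma adjusted p = 0.00842).

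**Figure D3:**
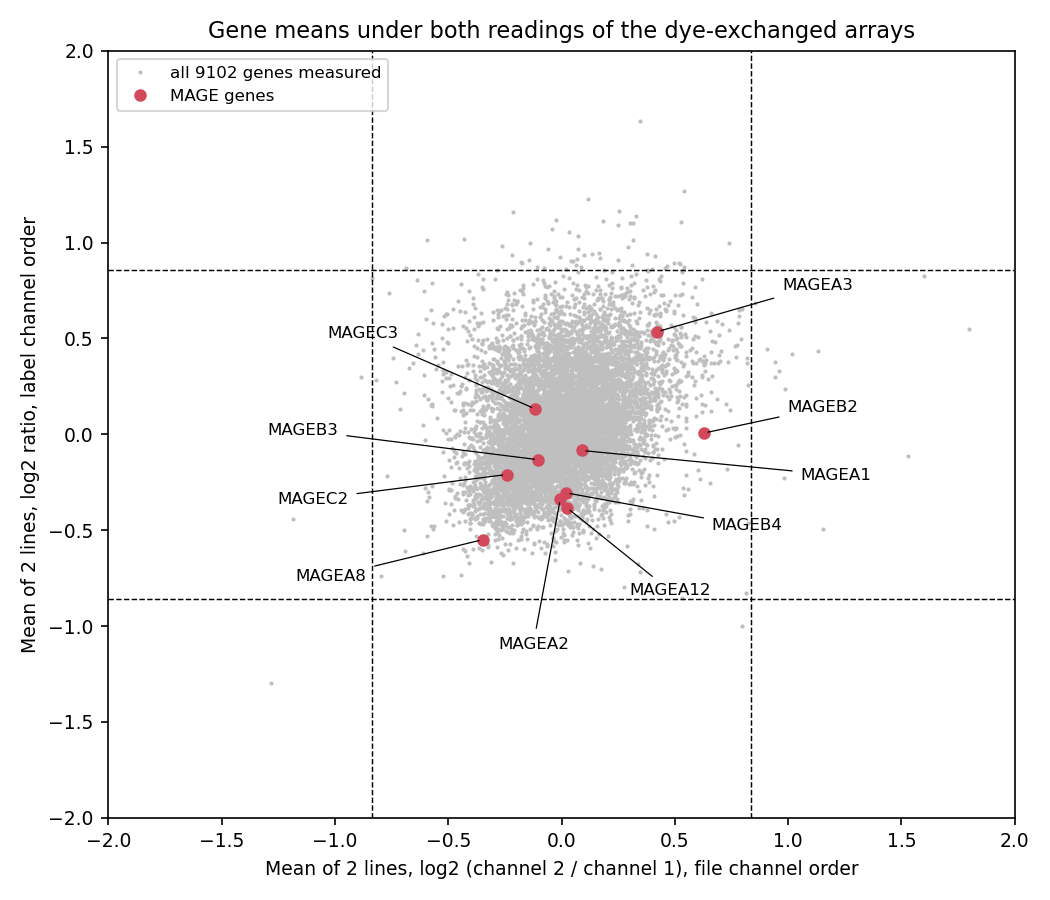
Mean log2 ratio of the 2 lines for every measured gene (grey) and the 10 MAGE genes (red), file channel order on the x axis and label channel order on the y axis; dashed lines mark the smallest mean called, 0.84 and 0.86, and 4 genes lie outside the plotted range. All 10 MAGE genes lie inside the dashed lines, with MAGEB2 at 0.63 on the x axis and 0.01 on the y axis and MAGEA3 at 0.42 and 0.53.

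MAGEB2 and MAGEA3, the members with the highest means in the file channel order, were also those with 15 CpG before the start. MAGEA2 and MAGEA8, with 9 and 8, had means of -0.01 and -0.35, and MAGEB3 and MAGEB4, with 1 each, had -0.10 and 0.02. With label-order signs MAGEB2 had 0.01 and MAGEA3 the highest mean. With 9 genes of 1 family, overlapping intervals and a count taken after the ratios were seen, this is a description. The CpG counts also depend on where the annotated start lies. GGATGTG began 86 bases before that of MAGEA3 and 12 to 18 before those of MAGEA2, MAGEA8 and MAGEA12. Most of the 15 CpG of MAGEA3 lie after that word, where the stretches of those genes hold few bases. The 5 genes with GGATGTG whole before the start had file-order means of 0.63 (MAGEB2), 0.42 (MAGEA3), 0.02 (MAGEA12), -0.01 (MAGEA2) and -0.35 (MAGEA8).

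**Figure D4:**
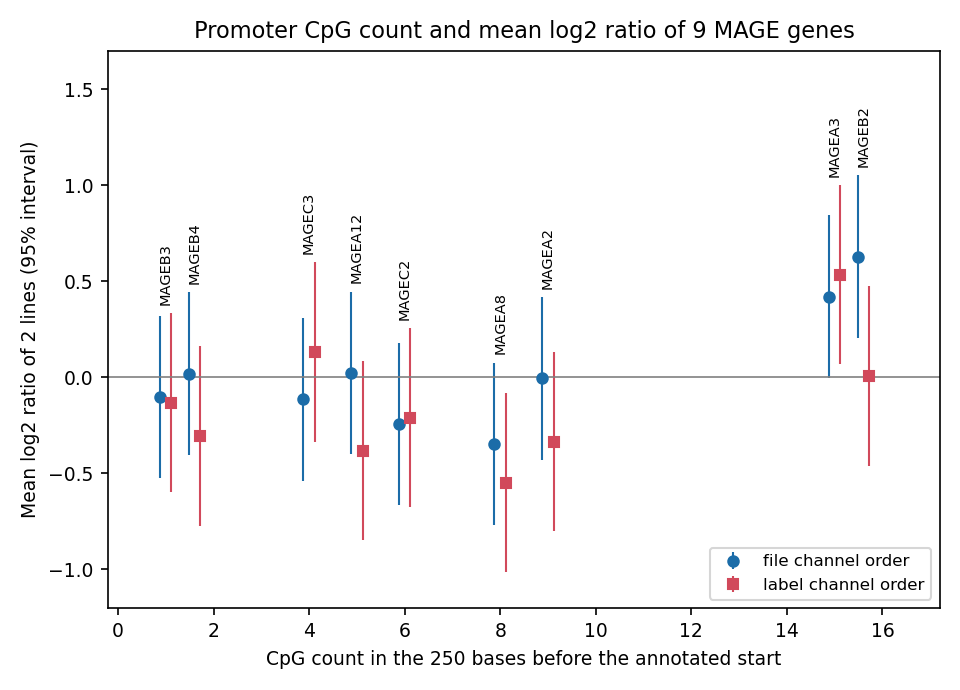
Mean log2 ratio of the 2 lines with its 95% interval (y axis) against the number of CpG in the 250 bases before the annotated start (x axis; genes of equal count set side by side) for 9 MAGE genes, in the file (blue) and label (red) channel order. MAGEA3 and MAGEB2, at 15 CpG, have the highest file-order means, 0.42 and 0.63, and in the label order MAGEB2 lies at 0.01. Each CpG count depends on where the annotated start lies.

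The remaining type I MAGE genes could not be tested. Of 17 on the list, 5 were on the array and none was measured on all 4 arrays. MAGEA10 was above background in both channels of both DLD-1 arrays, at 4083 and 4915 and at 2504 and 2380, with a ratio of 0.03 on each. On the HT-29 arrays the same probe read 37.9 and 137, then -42.3 and 346, with ratios of 0.24 and 1.34. It was above background there in 1 of the 4 channels, so these ratios rest on signal at background. MAGEB1, next to MAGEB4, read 945 and 1384, then 435 and 565 in DLD-1, with ratios of 0.04 and 0.58. On HT-29 array 1 it was above background in neither channel, and on HT-29 array 2 it read 868 and 1831 with a ratio of 0.74. MAGEA11 and MAGEC1 were above background in no channel, and MAGEA9 in 1 of 8.

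Type II MAGE genes, which are widely transcribed and not germ-line restricted, gave 6 tested of 8 on the array, and limma called none in either reading. Their median was 0.08 in the file and -0.05 in the label channel order, and MAGED2, a regulator of renal salt transport, had 0.19 and -0.21. The necdin gene NDN, a growth suppressor of neurons, had -0.22 and 0.45. Neither direction held under both readings.

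Ubiquitin ligases and other partners of MAGE proteins gave 8 tested of 10 on the array, also with none called by limma. Their median was 0.16 in the file and 0.33 in the label channel order, above that of all genes in each. By line, the file-order medians were 0.069 in DLD-1 and -0.004 in HT-29, against -0.044 and 0.039 over all genes, so HT-29 lay below. The label-order medians were 0.19 and 0.32, against 0.06 and 0.05. NSMCE1, a subunit of the SMC5/6 complex, had the mean of largest size in the file channel order at -0.53, and 0.58 in the label channel order. TRIM27 had 0.26 and, the highest in the label channel order, 0.62, and TRIM28, the partner of MAGEA3 and MAGEC2, had -0.03 and 0.47.

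None of the genes around the MAGE clusters passed the limma test over both lines in either reading. Of the genes listed near the MAGE-A cluster at Xq28, 16 of 21 on the array were tested, with medians of 0.09 and 0.14 in the file and label channel order against 0.01 and 0.05 over all genes. Of these 16, 14 had a mean above 0 in the file channel order and 15 in the label channel order. The share of all genes with a mean above 0 was not counted, but member ranks bound it. From the top of 9102 genes in the file channel order, MAGEB4 at 0.02 ranked 4356 and MAGEA2 at -0.01 ranked 4752. MAGEB2, at 0.01 in the label channel order, ranked 5069 there. By line, the Xq28 medians were -0.00 in DLD-1 and 0.28 in HT-29 in the file channel order. In the label channel order they were 0.30 and 0.03, so neither reading had a raised median in both lines. Over all genes the line medians were -0.04 and 0.04 in the file channel order and 0.06 and 0.05 in the label channel order. GPR50, an orphan receptor related to melatonin receptors, had the highest file-order mean of the Xq28 genes at 0.29 (0.51 in the label channel order). ATP2B3, a plasma membrane calcium pump, had their highest label-order mean at 0.58 (0.02 in the file channel order). CSAG2, a cancer-testis gene within the MAGE-A cluster, had 0.17 and 0.04, from 2 probes that disagreed in sign on 2 of the 4 arrays. Near the MAGE-B cluster 4 of 5 were tested, and FTHL17, a testis ferritin-like gene, had the highest mean at 0.33 (0.43 in the label channel order). Of the 5 probes for DMD, the dystrophin gene, 1 was past 2-fold on both HT-29 arrays in the label channel order, with channel 2 over channel 1 at 1.54 on array 1 and -1.39 on array 2. The mean over the DMD probes was 0.01 in the file and 0.24 in the label channel order.

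Other X-linked cancer-testis antigens gave 5 tested of 9 on the array, and limma called none. Their medians were 0.06 in the file and -0.14 in the label channel order. TEX11, a meiotic protein, had 0.26 and -0.02, and SSX1, a transcriptional repressor of the testis, -0.20 and -0.59. The medians of the MAGE members were 0.01 and -0.17. Among 10 tested intestinal epithelial markers limma called none, and 9 had a mean above 0 in the file and 6 in the label channel order. Their medians were 0.23 and 0.19, against 0.01 and 0.05 over all genes. The keratin KRT8 had the largest mean in the file channel order at 0.69 (0.37 in the label channel order). KRT20, a keratin of differentiated intestinal cells, was past 2-fold on both HT-29 arrays in the file channel order, at 2.26 and 1.14, and read -0.51 and -0.14 in DLD-1. In the file channel order the surface proteins GPA33 (-0.61 and -0.20) and EPCAM (-0.24 and -0.17) were below 0 on both HT-29 arrays. In DLD-1 they read -0.84 and 0.36 for GPA33 and 0.03 and 0.86 for EPCAM. The label channel order turns HT-29 array 2 positive for both. Of the tested markers of other cell types, limma called none. The largest file-order means were 0.37 for PRM1 (germ cell), 0.32 for CD14 (leukocyte), 0.33 for DCN (fibroblast) and -0.35 for SERPINA1 (hepatocyte). The germ cell marker DAZL was past 2-fold on both DLD-1 arrays in the file channel order, at 3.15 and 2.18. Its probe was above background in no channel and was not tested, so these ratios rest on signal at background.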

How the data were processed

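Per the labels, amplified RNA of treated and untreated cells was coupled to Cy3 or Cy5 and hybridised to 4 arrays. The deposited scanner files hold, per the file headers, linear intensity per channel for 30336 spots in 48 blocks, with a local background and its SD. They also hold the authors' log2 ratio, given for spots marked valid and centred to a median of 0 on each array. The deposited series table holds these log2 ratios as channel 2 over channel 1, with a median of 0.00 on each array, and was used as an alternative. No scanner or software is named in these sources.

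Normexp (offset 50) and then loess within each array, with control and bad spots given no weight, were run with limma 3.58.1 (R 4.3.3). 49 probes marked bad on some array were left out. Probes dim in both channels on any array used were left out. Probes of a gene were averaged, then the 2 arrays of a line, and lmFit and eBayes tested 2 line means against 0. Within a line no p was computed, and probes past 2-fold with 1 sign on both arrays were counted. Of the probes, 14200 carried 1 gene symbol in the platform table, 447 several and 14993 none, of which 1394 were named from the file descriptions. The steps were tested on simulated data.

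Members and gene lists were chosen with earlier results of these data known. All members were named. From the lists, a gene was named if it passed limma in either reading or had the largest absolute mean of its list. Genes with a probe past 2-fold on both arrays of a line were named too. For MAGEB2, with the highest file-order mean, the 3 nearest genes were named. Other genes named from the lists were picked after their values were seen. 1 Y-linked gene was dropped from the X-linked list. Alternatives were the label channel order, the first arrays alone, median centring, block centring, background subtraction, the deposited ratios, no or a stricter filter, and each array left out. Promoters came from RefSeq (GRCh38.p14) and were searched in Python 3.11.15.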

Additional observations from a re-analysis of the deposited data

Results flagged for a closer look

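MAGEA1 was flagged because its arrays lay on opposite sides of 0 in the 2 lines. In the file channel order both DLD-1 arrays were below 0 (mean -0.10) and both HT-29 arrays above it (mean 0.28), a DLD-1 minus HT-29 difference of -0.38 on the log2 scale. The difference was not tested. With block medians set to 0 the ratios were -0.13 and 0.12 in DLD-1 and -0.06 and 0.10 in HT-29, so neither line kept 1 sign, and the line means became -0.0020 and 0.021. DLD-1 also had both signs in the deposited ratios (-0.21 and 0.0036), and in the label channel order neither line kept 1 sign.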

How the results depend on the processing

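The alternatives were run on the counts of called genes, the counts per line and the mean of each member. In the file channel order 21 genes were called. This became 59 in the label channel order, 319 on the first arrays alone, 4 with block medians set to 0, 5 with local background subtracted, 12 with the deposited ratios, 40 without a filter, 11 with both channels required above background, and 5 to 357 with 1 array left out (in DLD-1, 357 without array 2 and 8 without array 1, and in HT-29, 5 without array 2). The count of members called was 0, but 2 on the first arrays alone and 0 to 2 with 1 array left out. The 59 genes of the label channel order became 330 with block medians set to 0, 95 with the deposited ratios and 36 without a filter. The 319 of the first arrays became 4 with median centring, 2 with block medians set to 0, 0 with background subtracted, 0 with the deposited ratios, 4 without a filter and 693 with both channels required.

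The 26 DLD-1 probes past 2-fold on both arrays became 81 in the label channel order, 77 with background subtracted, 71 without a filter and 9 with both channels required; single DLD-1 arrays gave 978 to 1631. The 29 HT-29 probes became 70, 95, 56 and 17 under the same settings and 15 with block medians set to 0; single HT-29 arrays gave 1021 to 1367.

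Means of MAGEA3, MAGEB2 and MAGEC2 kept their sign under every alternative run (MAGEB2 from 0.01 to 0.80), though MAGEA3 fell to 0.02 without HT-29 array 1 and reached 0.82 without HT-29 array 2. Signs turned for MAGEA1 (-0.084), MAGEA12 (-0.38), MAGEB4 (-0.31) and MAGEC3 (0.13) in the label channel order, and for MAGEA12 (-0.36), MAGEB4 (-0.29) and MAGEC3 (0.017) on the first arrays. They also turned for MAGEB4 with median centring (-0.025) and the deposited ratios (-0.036), for MAGEA2 (0.16) and MAGEA12 (-0.10) with block medians set to 0, and for MAGEA12 with background subtracted (-0.16). With 1 array left out, means ran from -0.00058 to 0.18 for MAGEA1, -0.27 to 0.26 for MAGEA2, -0.78 to 0.091 for MAGEA8, -0.29 to 0.33 for MAGEA12, -0.24 to 0.035 for MAGEB3 and -0.17 to 0.20 for MAGEB4. The cause of these changes was not tested. The deposited ratios give no value for MAGEB2 and MAGEA8 on 1 array each, so both are missing there. No paired analysis was possible because the labels number no replicates and each ratio already sets treated against untreated RNA on 1 array. Dim spots limit MAGEB2, MAGEA8, MAGEA12 and MAGEC3 most, since their signal on some arrays lies near the local background.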

Other observations

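Probes annotated to several MAGE genes entered no gene value. Of the 4 probes shared by MAGED4 and MAGED4B, 1 (AGhsB100218) had log2 ratios of channel 2 over channel 1 of 1.36 and 0.94 on the HT-29 arrays and 0.24 and -0.05 on the DLD-1 arrays, with channel 1 not above background on HT-29 array 1. The other three did not share that pattern, with HT-29 ratios between -0.54 and 0.69. The probe shared by MAGEC3 and MAGEC1 had ratios of -0.58 and 0.30 in DLD-1 and -1.16 and -0.05 in HT-29 and was not above background in 5 of 8 channels.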
